A study of Mus musculus with 12 samples.

Results

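Iron transport and storage genes were followed in RNA-seq libraries of the mouse cochlea, the coiled organ that turns sound into nerve signals. They are 9 genes, taken by symbol from a table of 35496 genes: the transferrin cycle genes Trf, Tfrc, Steap3 and Slc11a2, the ferritin genes Fth1 and Ftl1, the exporter gene Slc40a1, and the iron regulatory protein genes Aco1 and Ireb2. All 9 were found by their Ensembl identifiers, and all passed the filter on low counts, as did 19497 genes of the table. The genes were chosen by their role in iron handling after fold changes and p-values of these same libraries had been seen, without a threshold on any value, so the number of them that changed is no evidence about iron genes in general.

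All mice were FVB/NCrl, an inbred strain, and were 60 days old. While awake, they were exposed for 30 minutes to noise of 70 dB SPL (sound pressure level), which was the ambient control, of 94 dB SPL (loud) or of 105 dB SPL (very loud), and RNA was taken from the cochlea immediately afterwards. There were 4 libraries per noise level, 12 in all, and no genotype or drug differed between them. Whether libraries stand for single animals or pools is not stated, and the p-values therefore describe the variation among these samples, part of which may be technical.

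Cells take up iron as a complex of transferrin (Trf), the iron carrier of plasma, with the transferrin receptor (Tfrc). In the endosome the reductase STEAP3 turns ferric into ferrous iron and the transporter DMT1 (Slc11a2) passes it to the cytosol, where it is used, stored in the ferritin shell of heavy (Fth1) and light (Ftl1) chains, or exported by ferroportin (Slc40a1). The heavy chain is a ferroxidase, and the light chain promotes formation of the mineral core. The regulatory proteins IRP1 (Aco1) and IRP2 (Ireb2) bind hairpins in mRNA, the iron-responsive elements, when iron is scarce. Bound to a 5′ UTR hairpin they block translation, and bound to 3′ UTR hairpins they stabilise the mRNA. Read counts measure only the amount of mRNA, not its translation.

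The hairpins sort the members by the control they are known for, and are shown for that reason. Transcript sequences of GENCODE M21 (GRCm38, the assembly also named mm10) were searched on the strand of the transcript for a C, a stem strand of 5 bases, the 6-base loop CAGTGN with any last base but G, and the 5 bases that pair with the stem, G with T pairs allowed. Each line gives 30 bases, 5′ to 3′, with the loop in capitals.
Fth1, 5′ UTR, chr19:9982732-9982761, + strand: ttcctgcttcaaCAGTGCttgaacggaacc
Ftl1, 5′ UTR, chr7:45459778-45459807, - strand: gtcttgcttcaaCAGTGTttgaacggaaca
Slc40a1, 5′ UTR, chr1:45925464-45925493, - strand: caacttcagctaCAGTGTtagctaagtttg
Slc11a2, 3′ UTR, chr15:100395152-100395181, - strand: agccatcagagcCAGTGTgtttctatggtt
Tfrc, 3′ UTR, chr16:32631219-32631248, + strand: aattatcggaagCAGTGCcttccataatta
Tfrc, 3′ UTR, chr16:32631598-32631627, + strand: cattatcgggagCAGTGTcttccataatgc
Tfrc, 3′ UTR, chr16:32631663-32631692, + strand: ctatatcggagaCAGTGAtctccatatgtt
Tfrc, 3′ UTR, chr16:32631710-32631739, + strand: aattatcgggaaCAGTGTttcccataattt
The storage and export transcripts carry the hairpin before the coding sequence, and the uptake transcripts Tfrc and Slc11a2 carry it after. The Slc11a2 stem has 1 extra base on its 3′ side, which the search allowed separately. Of all genes with such a region, 0.105% had the paired hairpin in a 5′ UTR and 0.456% in a 3′ UTR, or 0.325% and 1.41% with the extra base allowed. No such letters were found in the UTRs of Trf, Steap3, Aco1 or Ireb2. A match describes the sequence and does not show that the element was in use.

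Total counts per library ran from 31141706 to 42317781, and no member had fewer than 1218 counts in a library. Levels are given as CPM, counts relative to the TMM-scaled library size, to compare libraries, or as TPM, which also divides by annotated exon length, to compare genes. Genes of the mitochondrial genome took 4.43% to 5.68% of counts at 70 and 105 dB and 2.68% to 3.59% at 94 dB, and 94 dB replicates 3 and 4 held the lowest shares, 2.68% and 2.73%. The same 2 libraries had haemoglobin shares of 2.90% and 2.95%, against 1.75% and 2.07% in the other 94 dB libraries. At 105 dB replicate 3 had 2.89% and the others 2.05% to 2.34%, and the 70 dB libraries had 1.68% to 2.04%. Summed markers of hair cells (Myo7a, Otof and 6 others) were detected in every library, at 123 to 141 CPM, and those of fibrocytes at 8089 to 9661 CPM. Erythroid genes, which mark red blood cells and their precursors, summed to 18718 to 33047 CPM.

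Ferritin stood far above the rest per length. At 70 dB Fth1 averaged 1747 ± 55.3 TPM and Ftl1 1278 ± 108 TPM (SD, n = 4), and over the 12 libraries they ranked 46th and 57th of the genes tested. Tfrc followed at 127 ± 8.71 TPM, Trf at 76.9 ± 4.01 TPM and Steap3 at 61.0 ± 4.10 TPM (SD, n = 4). Slc40a1 had 32.8 ± 3.07 TPM, Aco1 27.7 ± 0.68 TPM, Slc11a2 24.2 ± 1.63 TPM and Ireb2 21.8 ± 1.09 TPM (SD, n = 4). In this order only the last neighbours overlapped, Slc11a2 with 21.8 to 25.5 TPM and Ireb2 with 21.1 to 23.4 TPM. These levels depend on the annotated length, 3469 bases for Fth1 and 1340 bases for Ftl1, which counts every annotated exon. Of the 3320 exon bases of Trf, 2108 are shared with Gm20425, a model on the same strand that had 1 count in all libraries together, and reads in shared exons may not have been counted, so the Trf level is uncertain.

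Trf and Ftl1 moved, in opposite directions at 94 dB, and the other 7 members passed the threshold in no comparison, although Tfrc and Ireb2 did at 94 dB once a trend on GC content and length was removed. A change passed where edgeR's quasi-likelihood test gave a Benjamini-Hochberg adjusted p under 0.05 over the 19497 genes tested. Of the 9 members, 1 was higher and 1 lower at 94 dB against 70 dB, a share below the 26.1% of all genes called (13.9% higher, 12.2% lower). At 105 dB against 70 dB none was called, where 1.62% of all genes were (1.11% higher, 0.508% lower). DESeq2 called 1 member there, and more genes in all than edgeR. By edgeR 4 members had an unadjusted p under 0.05. The share of all genes below it is not given, so nothing is read from that count. At 105 dB against 94 dB, 1 was higher and none lower, where 17.3% of all genes were called (8.06% higher, 9.23% lower). The median log2 fold change of the members was 0.083 at 94 dB and 0.16 at 105 dB against 70 dB, and -0.018 and -0.004 over all genes. Both comparisons share the 70 dB libraries.

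**Figure D1:**
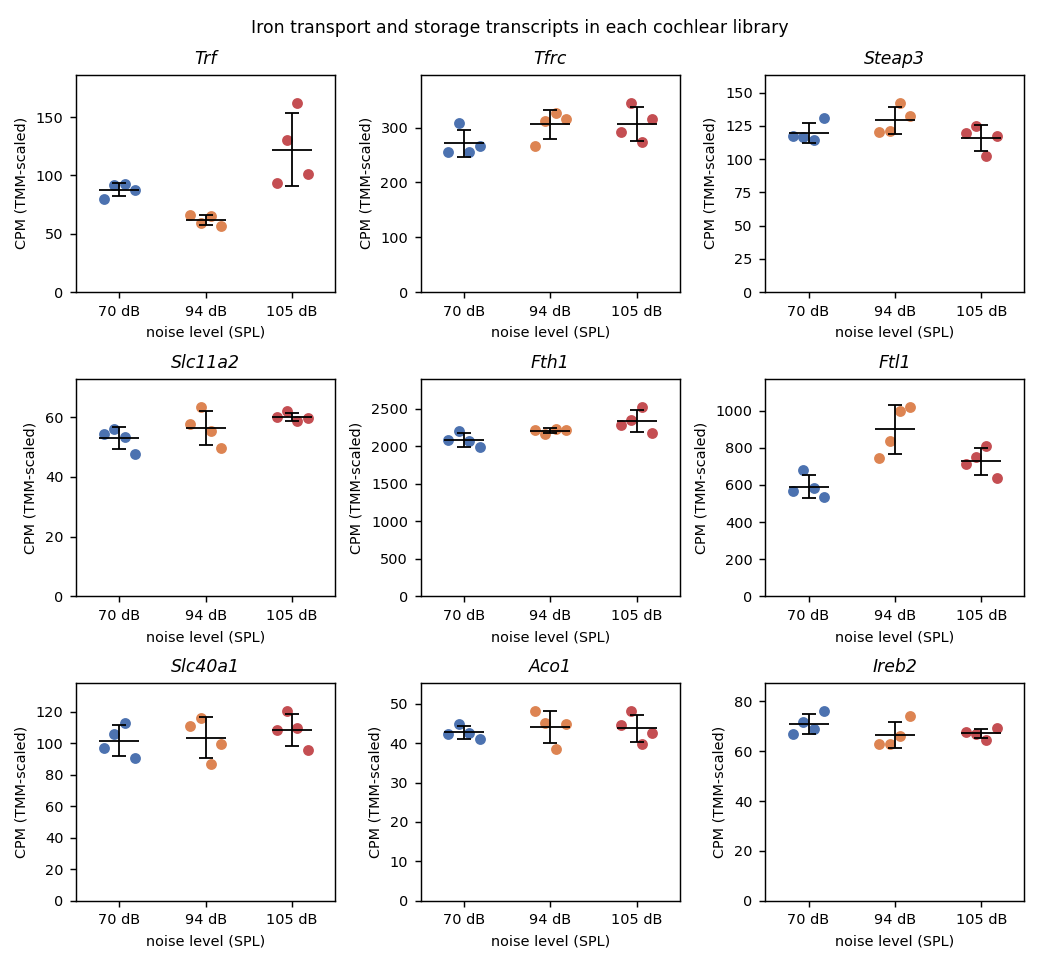
TMM-scaled CPM of the 9 genes in each of the 12 libraries, by noise level; each point is a library, with the group mean and SD (n = 4) in black, on axes that start at 0. Trf is lowest in the 4 libraries at 94 dB and highest in the 4 at 105 dB. All 4 Ftl1 values at 94 dB lie above those at 70 dB, which held for 13% of all genes.

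Trf (ENSMUSG00000032554; mm10 chromosome 9, 103204001 to 103230444, - strand), the plasma iron carrier, was the most variable member, with a 2.87-fold range over the 12 libraries. It read 80.0, 91.6, 92.4 and 87.2 CPM at 70 dB. The 94 dB libraries read 65.9, 59.3, 65.0 and 56.4 CPM. At 105 dB the values were 93.2, 130.5, 162 and 102 CPM. In CPM no group overlapped another: every 94 dB library lay below every 70 dB library, and every 105 dB library lay above both. The spread at 105 dB came from replicates 2 and 3. The gap between 105 dB replicate 1 (93.2 CPM) and 70 dB replicate 3 (92.4 CPM) was small and depended on the scaling. In TPM, 105 dB replicate 1 read 78.97, within the 70 dB range of 71.78 to 81.55. In bulk RNA, fewer cells of a type cannot be told apart from less RNA per cell.

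Trf fell to 61.7 ± 4.56 CPM at 94 dB, against 87.8 ± 5.69 CPM at 70 dB (SD, n = 4). The fitted log2 difference was -0.51 with an SE of 0.14 (edgeR adjusted p = 0.0180). At 105 dB it read 122 ± 31.2 CPM (SD, n = 4). The fitted log2 difference from 70 dB, 0.47 with an SE of 0.14, did not pass by edgeR (adjusted p = 0.110). In CPM the groups did not overlap in either comparison. That held for 25.4% of all genes at 94 dB (12.3% lower there) and 10.8% at 105 dB (5.78% higher, 5.03% lower). The direct comparison of the noise levels gave a log2 fold change of 0.98 for 105 dB over 94 dB (SE 0.14; edgeR adjusted p = 0.00156), a fold of 1.98. The call at 94 dB ended without 70 dB replicate 3 (edgeR adjusted p = 0.0519), without 94 dB replicate 4 (0.0590) and without 94 dB replicates 3 and 4 together (0.149), at log2 fold changes of -0.48, -0.47 and -0.48. The 105 dB to 94 dB call had an adjusted p of 0.0524 by edgeR without 94 dB replicates 3 and 4, at a log2 fold change of 0.96. Of 21 alternatives, the rise at 105 dB over 70 dB passed in 2: with DESeq2 (adjusted p = 0.0200) and without 105 dB replicate 1 (0.0314 by edgeR). Over the alternatives its log2 fold change ran from 0.31 to 0.59, with an edgeR adjusted p up to 0.271.

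Oligodendrocytes, Schwann cells and the choroid plexus are known to make transferrin. The summed markers of oligodendrocytes (9 genes) read 1236 to 1670 CPM at 94 dB and 1400 to 2149 CPM at 70 dB, and 1260 to 1649 CPM at 105 dB. Those of Schwann cells (6 genes) read 1451 to 2013 CPM at 94 dB and 1821 to 3178 CPM at 70 dB, and 1477 to 2143 CPM at 105 dB. Neither sum was higher at 105 dB than at 94 dB beyond the spread (two-sided exact permutation p = 0.657 and 0.771; 0.867 and 0.912 adjusted over 33 tests). The oligodendrocyte marker Opalin was at 0 counts in 3 libraries, 1 of each group. Choroid plexus markers (4 genes) read 48.7 to 59.2 CPM at 94 dB and 53.3 to 71.8 CPM at 70 dB, and 55.1 to 59.4 CPM at 105 dB. The part of these cells in the Trf differences was not tested.

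The receptor gene Tfrc (ENSMUSG00000022797; mm10 chromosome 16, 32608920 to 32632794, + strand) read 256, 308, 255 and 266 CPM at 70 dB. At 94 dB it read 267, 313, 327 and 316 CPM. The 105 dB libraries had 293, 345, 274 and 315 CPM. The groups overlapped through replicate 2 at 70 dB and replicate 1 at 94 dB. Its log2 fold change was 0.17 at 94 dB (95% interval -0.013 to 0.36; adjusted p = 0.159) and 0.18 at 105 dB (95% interval -0.008 to 0.36; adjusted p = 0.286), both against 70 dB by edgeR. With the trend of counts on GC content and exon length removed, the 94 dB value was 0.46 and passed (edgeR adjusted p = 0.00322). Tfrc has a GC content of 39.4%, against a median of 50% over the genes tested. Tfrc is also a gene of erythroid precursors, and erythroid markers (14 genes, of which 13 were counted, 0 of them at 0 in any library) summed to 19455 to 33047 CPM at 94 dB and 18718 to 22931 CPM at 70 dB. At 105 dB that sum was 22968 to 32066 CPM, narrowly above every 70 dB library (two-sided exact permutation p = 0.0286, 0.236 adjusted over 33 tests). Haemoglobin RNA made up most of the sum. At 70 dB Hba-a1 averaged 8636.5 CPM and Hbb-bs 6890.6 CPM, of a mean sum of 20369 CPM. The erythroid genes Klf1 (0.45 at 94 dB, 0.47 at 105 dB) and Epor (0.50 and 0.43) were called higher than at 70 dB at both noise levels. The part of erythroid cells in the Tfrc values was not tested.

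Steap3 (ENSMUSG00000026389), the endosomal ferrireductase, read 120.5, 121, 142 and 133 CPM at 94 dB against 117, 117, 114 and 131 CPM at 70 dB. At 105 dB it read 119, 125, 102 and 117 CPM. All groups overlapped, and the 3 log2 fold changes lay between -0.16 and 0.11. Slc11a2 (ENSMUSG00000023030), the ferrous iron transporter of endosomes, read 57.6, 63.4, 55.2 and 49.6 CPM at 94 dB against 54.4, 56.1, 53.5 and 47.6 CPM at 70 dB. Its 105 dB values were 59.9, 62.0, 58.6 and 59.6 CPM, all above every 70 dB library. That difference, 0.18 on the log2 scale (95% interval 0.023 to 0.34), did not pass (edgeR adjusted p = 0.209), and 5.78% of all genes had every 105 dB library above every 70 dB library. Slc11a2 shares 402 exon bases with Gm5475 on the other strand, which had 21 counts in all libraries together.

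Ftl1 (ENSMUSG00000050708; mm10 chromosome 7, 45457944 to 45459884, - strand), the ferritin light chain gene, rose at 94 dB. The 94 dB libraries read 744, 838, 997 and 1019 CPM, against 565, 679, 581 and 534 CPM at 70 dB. Replicates 3 and 4 were the highest at 94 dB, and the other 94 dB libraries also lay above every 70 dB library. Of all genes, 13% had every 94 dB library above every 70 dB library. The means were 899 ± 131 CPM at 94 dB and 590 ± 62.3 CPM at 70 dB (SD, n = 4), and the fitted log2 difference was 0.61 with an SE of 0.11 (edgeR adjusted p = 8.68e-04). The call held under every alternative run, with adjusted p from 1.09e-06 to 0.0237, but its size did not: the log2 fold change was 0.25 with the GC and length trend removed and 0.43 without 94 dB replicates 3 and 4. Ftl1 is the shortest member and has the highest GC content of the 9, 57.7%.

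At 105 dB Ftl1 had 714, 748, 809 and 638 CPM, with a mean between those of the other groups, and replicate 4 lay within the 70 dB range. The log2 fold change was 0.30 against 70 dB (95% interval 0.080 to 0.52; edgeR adjusted p = 0.151) and -0.31 against 94 dB (95% interval -0.53 to -0.084; edgeR adjusted p = 0.0543). The second value sat at the threshold: it passed with DESeq2 (0.0259), with no filter on low counts (0.0371), and without 70 dB replicate 2 (0.0478), 94 dB replicate 1 (0.0139) or 105 dB replicate 3 (0.0412). It shrank to -0.061 with the GC and length trend removed (edgeR adjusted p = 0.643) and to -0.12 without 94 dB replicates 3 and 4 (0.609). Near copies of Ftl1 can share its reads, so its counts are uncertain, but the annotated copies held few: Ftl1-ps1 had 99 to 245 counts in a library, where Ftl1 had 17031 to 38021. Gm10252, on the other strand of its exons, had 142 counts in all libraries together.

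Fth1 (ENSMUSG00000024661; mm10 chromosome 19, 9980598 to 9985098, + strand), the heavy chain gene, was called in no comparison. It read 2223, 2163, 2227 and 2221 CPM at 94 dB against 2083, 2201, 2070 and 1986 CPM at 70 dB. At 105 dB it read 2288, 2348, 2522 and 2176 CPM. The 70 dB group overlapped both others through its replicate 2. Its log2 fold change was 0.083 at 94 dB (95% interval -0.062 to 0.23; adjusted p = 0.402) and 0.16 at 105 dB (95% interval 0.017 to 0.31; adjusted p = 0.218), both against 70 dB by edgeR.

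Within each library the 2 chains can be set against each other without any scaling between libraries. The ratio of Ftl1 to Fth1 counts was 0.335, 0.388, 0.447 and 0.459 at 94 dB and 0.271, 0.308, 0.281 and 0.269 at 70 dB. At 105 dB it was 0.312, 0.318, 0.321 and 0.293, which overlaps 70 dB through replicate 4. The 94 dB ratios lay above those of all other libraries. Per length, Ftl1 was below Fth1 in all 8 libraries of 70 and 105 dB and in 94 dB replicate 1, and above it in the other 3 libraries of 94 dB. Which chain is above depends on the annotated lengths, and in 94 dB replicate 2 Ftl1 and Fth1 were close, at 1752 and 1746 TPM. The chains differ in GC content (57.7% for Ftl1, 51.9% for Fth1) and length. Once that trend was removed, the log2 fold changes at 94 dB were 0.25 for Ftl1 and 0.034 for Fth1. Both chains together took 0.301% to 0.316% of counts at 94 dB and 0.258% to 0.289% at 70 dB, and 0.282% to 0.323% at 105 dB.

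**Figure D2:**
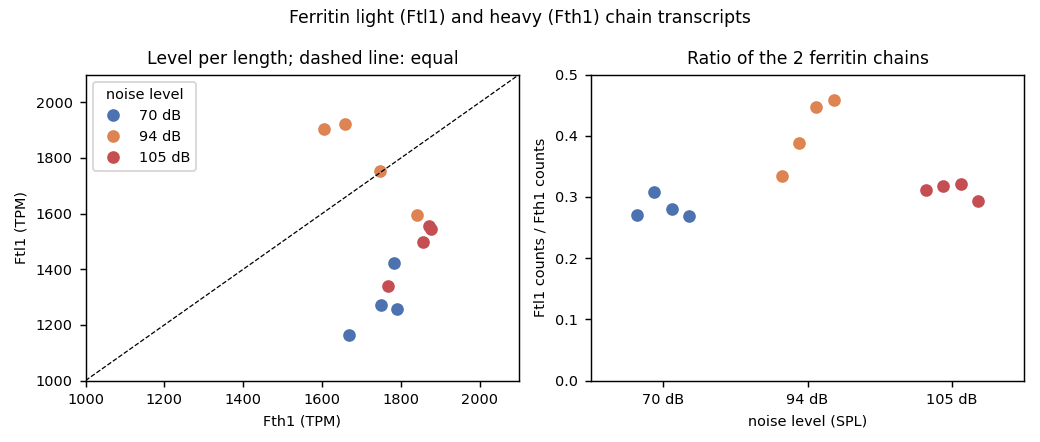
Left, Ftl1 against Fth1 in TPM, 1 point per library, with a dashed line at equal levels; right, the ratio of Ftl1 to Fth1 counts in each library, by noise level. The 94 dB ratios run from 0.335 to 0.459 and all other libraries from 0.269 to 0.321.

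Macrophages are rich in ferritin and recycle the iron of red blood cells. Macrophage markers (11 genes, all counted) summed to 575 to 684 CPM at 94 dB and 464 to 548 CPM at 70 dB, without overlap (two-sided exact permutation p = 0.0286, the smallest that 70 assignments can give; 0.236 adjusted over 33 tests). At 105 dB they summed to 502 to 563 CPM. In the fit, 4 of the 11 were higher at 94 dB, the complement genes C1qa (log2 fold change 0.88), C1qb (0.54) and C1qc (0.59), and Adgre1 (0.30), while Cx3cr1 was lower (-0.66). Of all genes, 13.9% were higher and 12.2% lower in that comparison. Neutrophil markers (9 genes, all counted) summed to 7699 to 15172 CPM at 94 dB and 7431 to 9247 CPM at 70 dB, with overlap (exact permutation p = 0.114, 0.398 adjusted). Their 105 dB sums were 8245 to 9724 CPM. In the fit 4 of the 9 were higher at 94 dB, beside the same 13.9% of all genes. No macrophage or neutrophil marker was at 0 in any library. Their part in the Ftl1 difference was not tested.

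The exporter gene Slc40a1 (ENSMUSG00000025993; ferroportin) read 111, 116, 86.9 and 99.7 CPM at 94 dB against 96.9, 106, 113 and 90.3 CPM at 70 dB. At 105 dB it read 108, 120.2, 109.9 and 95.8 CPM, and all groups overlapped. The log2 fold change was 0.027 at 94 dB (95% interval -0.17 to 0.23) and 0.096 at 105 dB (95% interval -0.10 to 0.30), both against 70 dB.

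Aco1 (ENSMUSG00000028405), which encodes the cytosolic aconitase that doubles as IRP1, read 48.1, 45.1, 38.4 and 44.8 CPM at 94 dB against 42.4, 45.0, 42.6 and 41.2 CPM at 70 dB. At 105 dB it read 44.6, 48.1, 39.8 and 42.7 CPM. Its 95% intervals against 70 dB ran from -0.12 to 0.20 at 94 dB and from -0.13 to 0.20 at 105 dB on the log2 scale. Ireb2 (ENSMUSG00000032293), which encodes IRP2, read 62.9, 63.0, 66.1 and 74.2 CPM at 94 dB against 67.0, 71.9, 68.8 and 76.1 CPM at 70 dB. Its 105 dB libraries read 67.9, 67.1, 64.7 and 69.2 CPM. The log2 fold change at 94 dB was -0.092 (95% interval -0.23 to 0.050), but 0.25 and past the threshold with the GC and length trend removed (edgeR adjusted p = 0.0233). Ireb2 is the longest member, 9479 exon bases, and has the lowest GC content of the 9, 38.4%. At 105 dB against 70 dB its value also changed sign with the trend removed, from -0.077 to 0.045, without passing in either.

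**Figure D3:**
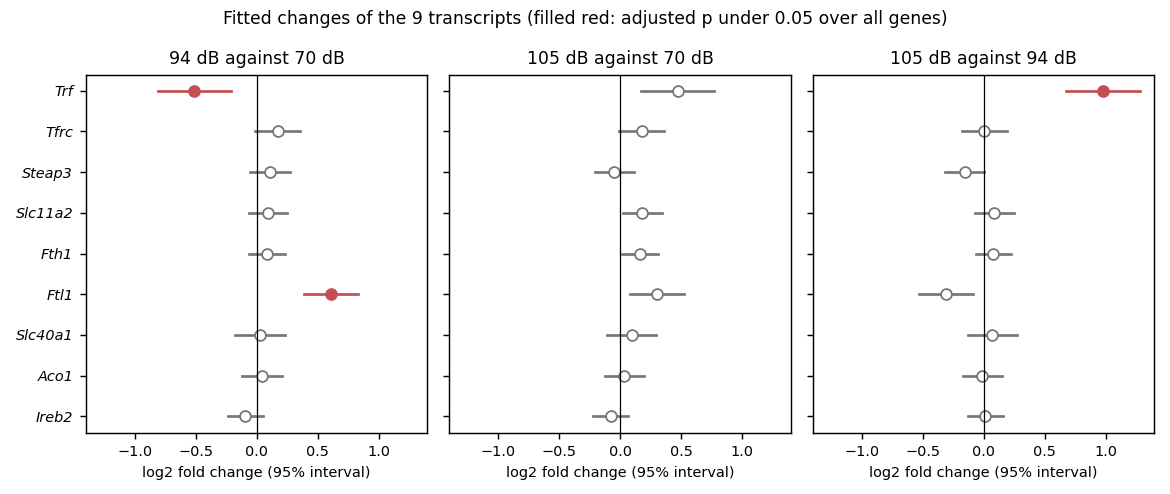
Fitted log2 fold change of each gene with its 95% interval in the 3 comparisons, first-named noise level over the second; filled red points passed an adjusted p of 0.05 over all genes. Trf passes at 94 dB (-0.51) and between the noise levels (0.98), and Ftl1 at 94 dB (0.61).

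**Figure D4:**
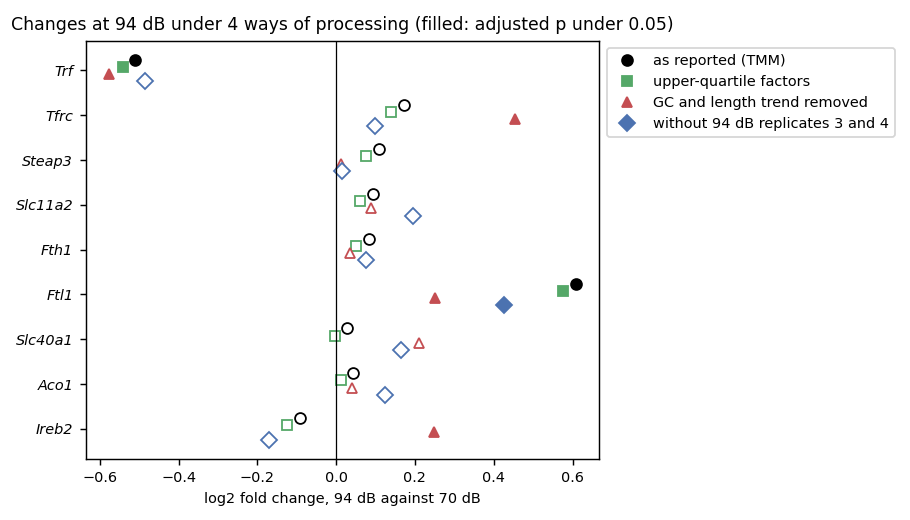
Log2 fold change of each gene at 94 dB against 70 dB under 4 ways of processing; filled symbols passed an adjusted p of 0.05. With the GC and length trend removed Tfrc moves to 0.46, Ireb2 to 0.25 and Ftl1 to 0.25, while Trf stays below 0 in all 4.

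The members did not share 1 pattern over the libraries. For each, the genes of most similar log2 CPM over the 12 libraries were sought among 13932 others, as a description, since libraries of 1 noise level share depth, composition and treatment. Trf was nearest to Uchl5 and Uspl1 (Pearson's r of 0.973 and 0.952), and Ftl1 to Egln2 and Twf2 (0.975 and 0.975). Fth1 was nearest to Rps3a1 and Trim28 (0.933 and 0.919), Tfrc to Dhrs11 and Tal1 (0.923 and 0.916), and Steap3 to Atg4b and Spsb4 (0.917 and 0.915). Slc11a2 was nearest to Birc3 and Dhx16 (0.942 and 0.938), Slc40a1 to Ulbp1 and Morc3 (0.926 and 0.915), Aco1 to Thap12 and Lrrc20 (0.926 and 0.874), and Ireb2 to Mbnl1 and Kbtbd7 (0.947 and 0.892). No member was among the nearest genes of another.

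Other genes of iron handling were taken from 8 lists with 86 distinct genes, of which 84 were tested. At 94 dB against 70 dB, 23 rose and 5 fell, where 13.9% of all genes were higher and 12.2% lower, and the median log2 fold change was 0.11. With the GC and length trend removed 15 rose and 5 fell, with upper-quartile factors 20 and 8, and without 94 dB replicates 3 and 4 these counts were 7 and 2. At 105 dB against 70 dB, 1 rose and 1 fell, where 1.11% of all genes were higher and 0.508% lower. DESeq2 called 3 higher and 1 lower there, and none was called without replicate 2 or 3 of 105 dB or replicate 1, 3 or 4 of 70 dB. At 105 dB against 94 dB, 6 rose and 12 fell, where 8.06% of all genes were higher and 9.23% lower; the counts were 5 and 7 with the trend removed, and 1 and 0 without 94 dB replicates 3 and 4.

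Iron-sulphur cluster genes, whose products assemble the cofactors of aconitase and the respiratory chain, had 9 of 21 higher and 2 lower at 94 dB, beside 13.9% and 12.2% of all genes. The ferredoxin gene Fdx1 rose to 23.7 ± 3.69 CPM at 94 dB, against 14.4 ± 0.67 CPM at 70 dB (SD, n = 4; edgeR adjusted p = 6.13e-04). Ciapin1 and Nubp2, of the cytosolic assembly pathway, rose by 0.51 and 0.57 on the log2 scale. Mms19, also of the cytosolic pathway, was lower, at -0.28 (named after its value was seen). At 105 dB against 70 dB none of the 21 was called.

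Haem synthesis had 1 of 12 higher at 94 dB, where 13.9% of all genes were, namely Tmem14c, a mitochondrial porphyrin transporter, at 155 ± 16.2 CPM against 91.1 ± 8.79 CPM at 70 dB (SD, n = 4; edgeR adjusted p = 3.86e-05). Tmem14c was also the 1 iron gene higher at 105 dB, with a log2 fold change of 0.42 (edgeR adjusted p = 0.0212); without 105 dB replicates 2 or 3 or 70 dB replicates 1, 3 or 4 it did not pass (up to 0.102). Haem breakdown and transport genes had 4 of 13 higher at 94 dB and none lower, where the shares of all genes were 13.9% and 12.2%: the haptoglobin gene Hp (0.60), the scavenger receptor gene Lrp1 (0.27) and the biliverdin reductase genes Blvra (0.26) and Blvrb (0.81), the last 2 named after their values were seen. The haem exporter gene Flvcr1 did not pass at 94 dB (-0.24, edgeR adjusted p = 0.0643), but did as lower with upper-quartile factors (0.0400) and without 94 dB replicate 2 (0.0458); over the alternatives the adjusted p ran up to 0.605. Flvcr1 was higher at 105 dB than at 94 dB (0.34, edgeR adjusted p = 0.0198). That call was lost with the GC and length trend removed, with or without the replicate block. It was also lost without 94 dB replicate 3, without 94 dB replicates 3 and 4 together (edgeR adjusted p = 0.22), and without 105 dB replicates 1 or 4.

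Genes of the hepcidin axis, the BMP and SMAD pathway that sets systemic iron in the liver, had 6 of 14 higher and 1 lower at 94 dB, set against 13.9% and 12.2% of all genes. Id1 and Atoh8, targets of BMP signalling, rose by 0.61 and 0.46 on the log2 scale, and Bmp2, named after its value was seen, was lower at both 94 dB (-0.38) and 105 dB (-0.37), the second a call lost without any 1 of the 4 libraries of 70 dB or of replicates 1, 2 and 3 of 105 dB. Smad6 was not called at 94 dB (0.13, but -0.14 with the GC and length trend removed) and was lower at 105 dB than at 94 dB (-0.45, edgeR adjusted p = 0.00702), a call lost with the trend removed or without 94 dB replicates 3 and 4. Of 12 other uptake genes, the second transferrin receptor gene Tfr2 (0.42) and the mitochondrial iron importer gene Slc25a28 (0.40) rose at 94 dB and the reductase gene Steap2 fell (-0.45). The ferroxidase gene Cp, which loads exported iron onto transferrin, fell to 308 ± 21.2 CPM at 94 dB, against 399 ± 24.3 CPM at 70 dB (SD, n = 4; edgeR adjusted p = 0.00108). Pcbp1, an iron chaperone that delivers iron to ferritin, rose by 0.37. Alas2 and Epas1, other mRNAs known to carry an iron-responsive element, were not called in any comparison.

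Of the 94 dB calls named by rule, those of Atoh8, Cp, Hp, Pcbp1, Steap2 and Tfr2 were lost with the GC and length trend removed, at log2 fold changes of 0.14, -0.12, 0.32, 0.071, -0.18 and 0.24. Those of Hp, Lrp1, Slc25a28, Steap2 and Tfr2 were lost without 94 dB replicates 3 and 4, and that of Lrp1 also without 94 dB replicate 3 and with the trend removed and the replicate block added. Fdx1, Ciapin1, Nubp2, Id1 and Tmem14c kept theirs at 94 dB under every alternative run, but not always their size. With the trend removed Id1 was at 0.31, Nubp2 at 0.32 and Tmem14c at 0.50 on the log2 scale, and Nubp2 was at 0.31 without 94 dB replicates 3 and 4. Ciapin1, Cp, Pcbp1 and Flvcr1 share exon bases with a gene on the opposite strand, so their counts are uncertain if strand was not used.

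**Figure D5:**
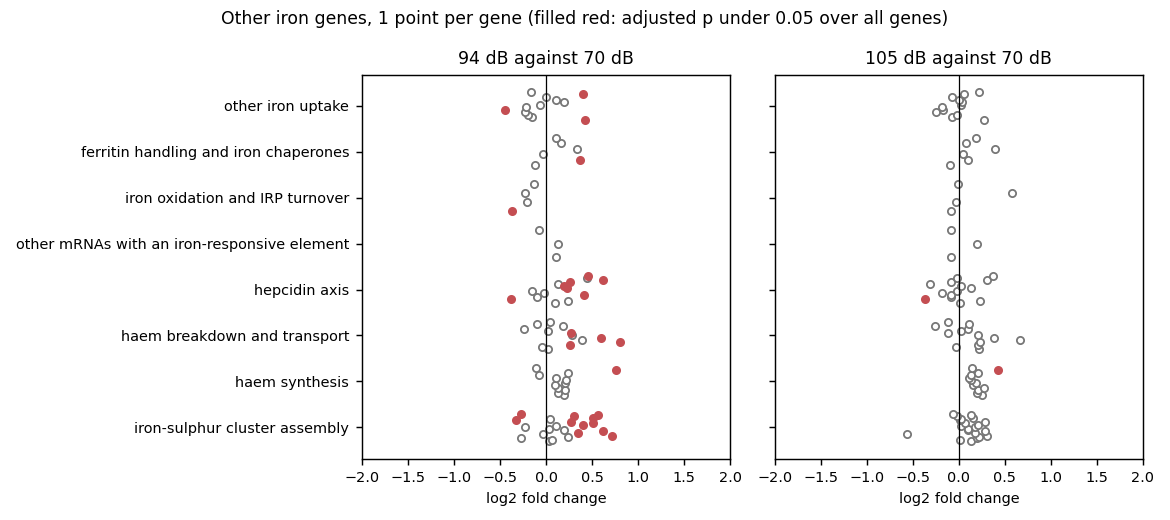
Log2 fold change of each other iron gene, by list, at 94 dB (left) and 105 dB (right) against 70 dB; each point is a gene, filled red where the adjusted p over all genes was under 0.05, and Alas2 stands in 2 lists. Of 84 genes, 23 are red on the right of 0 and 5 on the left at 94 dB, against 1 and 1 at 105 dB.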

How the data were processed

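RNA-seq read counts of 12 cochlear libraries were used, in 3 groups of 4 by the sample titles. Per the labels' protocols, libraries were made from TRIzol RNA with an Illumina TruSeq kit. The deposited table holds whole-number counts per Ensembl gene, not normalised. The build was mm10, and CASAVA, STAR and, for counting, featureCounts 1.5.0-p3 are named, per the submitters' processing notes. Annotation, use of strand and treatment of reads with several alignments: not given in the sources used here. Positions, exon lengths and transcript sequences are from GENCODE M21.

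Counts were tested with edgeR 4.0.16 (R 4.3.3): filterByExpr with a minimum count of 10, TMM factors, a mean per group over all libraries (9 residual degrees of freedom), glmQLFit with robust dispersions and glmQLFTest, adjusted over 19497 genes. Standard errors and 95% intervals derive from the F statistic and cover replicate spread. The GC and length trend was a natural spline with 5 degrees of freedom on each, fitted per library. DESeq2 1.42.0 and the other alternatives are given in the closing section. Marker sums were compared by exact permutation, adjusted over 33 tests. The members, lists and alternatives were chosen with earlier results of these data known. All members are named, and of each other iron list at most 3 genes, those called with the smallest p over the comparisons, plus Blvra, Blvrb, Mms19, Bmp2, Alas2 and Epas1, named after their values were seen; for similar patterns, 2 genes per member with a mean log2 CPM of at least 1. Ftmt and the erythroid marker Ahsp were not analysed here; Hamp2 and Opalin did not pass the filter.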

Additional observations from a re-analysis of the deposited data

Results flagged for a closer look

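Trf differed between the noise levels, with a log2 fold change of 0.98 for 105 dB over 94 dB in the fit of all libraries, and every 105 dB library lay above every 94 dB library, as did 10.5% of all genes (21.3% had groups apart in either direction).

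Fth1 had an outlying value at 94 dB: replicate 2, at 2163 CPM, lay apart from the other 3, which read 2221 to 2227 CPM. Of 27 sets of 4 values tested in this way (9 genes, 3 groups) it was the 1 that stood out, and chance gives about 1 in 20.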

How the results depend on the processing

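By edgeR 5085, 316 and 3372 genes were called at 94 dB against 70 dB, 105 dB against 70 dB and 105 dB against 94 dB, and 2, 0 and 1 of them were members. Removing the GC and length trend gave 3114 genes at 94 dB and 1738 at 105 against 94 dB, and 4 members at 94 dB. Adding the replicate block to it gave 3295 and 1896 there, 670 at 105 against 70 dB, and 4 members at 94 dB. Without 94 dB replicates 3 and 4 there were 1610 genes and 1 member at 94 dB, and 217 genes and 0 members at 105 against 94 dB. At 105 against 70 dB, no filter gave 523 genes, the replicate block alone 479 and DESeq2 887, with 1 member by DESeq2; at 105 against 94 dB no filter and DESeq2 gave 2 members each. With upper-quartile factors, then with TMM, 45.0% and 53.4% of the 94 dB calls were higher, 58.3% and 68.7% of those at 105 against 70 dB, and 50.5% and 46.6% of those at 105 against 94 dB.

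Leaving out single libraries gave 3452 to 5409, 126 to 399 and 1650 to 3798 genes, and 1 to 2, 0 to 1 and 1 to 2 members. At 105 against 70 dB, dropping replicate 1 or replicate 4 of the 70 dB group left 191 and 149 genes, and dropping replicate 2 or replicate 3 of the 105 dB group 126 and 187. At 105 against 94 dB, dropping replicate 2 or replicate 4 of the 105 dB group left 2057 and 1996 genes, and dropping replicate 3 or replicate 4 of the 94 dB group 1650 and 1860.

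Some small log2 fold changes changed sign. Ireb2 at 94 dB went from -0.092 to 0.248 with the trend removed and 0.245 with the block as well, past the threshold. The others passed in neither setting. With the trend removed, then with the block as well, Ireb2 was 0.045 and 0.046 at 105 against 70 dB, and at 105 against 94 dB Ireb2 was -0.203 and -0.199, Tfrc -0.192 and -0.195, Slc40a1 -0.061 and -0.066, and Aco1 0.003 and 0.002. Upper-quartile factors gave -0.004 for Slc40a1 at 94 dB and 0.001 for Aco1 at 105 against 94 dB. Without 94 dB replicates 3 and 4, Slc11a2 was -0.012 and Slc40a1 -0.066 at 105 against 94 dB. With single libraries left out, Slc40a1 ran from -0.028 to 0.102 at 94 dB, Steap3 from -0.083 to 0.01 and Aco1 from -0.014 to 0.079 at 105 against 70 dB, and at 105 against 94 dB Tfrc from -0.056 to 0.053, Slc40a1 from -0.006 to 0.132, Aco1 from -0.071 to 0.032 and Ireb2 from -0.013 to 0.072. The cause was not tested.

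Same-numbered libraries did not all deviate together: correlations were -0.149 to 0.182, with those of replicate 2 positive in every comparison (0.109, 0.155 and 0.182), and replicate 2 had the lowest oligodendrocyte and Schwann cell sums of each group. By the limit of 0.1 for every pair, the replicate numbers were not taken to pair samples, and the replicate block alone changed no call of a member. The sample codes in the titles skip a number in the 105 dB group before replicate 3. Its replicates 3 and 4 may therefore not match those of the other groups, and pairing by code was not tested. With at least 1218 counts per member and library, variation between libraries, not counting, set the width of the intervals.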
